A study of Mus musculus with 16 samples.

Results

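The genes described here encode nuclear subunits of respiratory complexes II to V and cytochrome c, measured in mouse heart ventricle. Members were the array's probes, controls left out, whose gene name is Sdha, Sdhb, Sdhc, Sdhd, Cyc1 or Cycs or begins with Uqcr, Cox4, Cox5, Cox6, Cox7, Cox8 or Atp5 and whose heart signal was well above background on 4 or more of the 16 arrays. Of 41174 probes, 65 probes of 47 genes carried such a name and 57 probes of 44 genes were members. They comprised 5 probes for complex II, 10 for complex III, 3 for cytochrome c, 14 for complex IV and 21 for complex V, and 4 probes of the genes Atp5s, Cox4nb and Cox7a2l, which share a prefix but encode no classical subunit and are described apart. The 8 probes that were not members were those of Cox4i2, Cox6b2 and Cox8c, the testis or lung forms of complex IV subunits, and further probes of Atp5f1, Cox4nb, Cox5a, Sdhc and Uqcrq, whose other probes are members.

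The study crossed genotype with surgery in 129Sv mice, with 4 arrays in each of 4 groups. The groups were CHIP-/- mice 1 week after trans-aortic banding (TAB), CHIP-/- mice 1 week after a sham operation, wild-type mice 1 week after TAB, and wild-type mice 1 week after a sham operation. Stub1 encodes CHIP, which binds chaperones and ubiquitinates their clients, and TAB constricts the aorta so that the left ventricle pumps against a raised pressure. All hearts were hybridised in Cy5 against 1 Cy3 reference made from whole neonatal mice of mixed 129Sv and C57BL/6 background, so every value is a log2 ratio of heart over that reference. The series' design text calls the 4 arrays of a group biological replicates. The nature of the CHIP allele, the age and sex of the mice and any pooling are not given in the sources used here.

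The respiratory chain of the inner mitochondrial membrane passes electrons from complexes I and II through ubiquinone to complex III, then by cytochrome c to complex IV, which reduces oxygen. Complexes I, III and IV pump protons, and complex V, the ATP synthase, uses the return flow of protons to make ATP. Heart muscle is among the tissues richest in these complexes, and adult heart and skeletal muscle use their own isoforms of several complex IV subunits.

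The log2 ratio of Stub1 in CHIP-/- minus wild-type hearts was -1.33 after TAB and -1.70 after sham, with no overlap of the arrays. The 4 groups occupied 4 separate slides, and an effect of the slide cannot be told apart from that of the group. Between 27% and 37.7% of an array's spots had a heart signal well above background. Transcripts of Ddx3y and Eif2s3y, which are Y-linked, were detected on CHIP-/- sham replicates 2 and 4 and wild-type sham replicate 4 but on no TAB array. The TAB comparisons of both genotypes therefore carry this imbalance between TAB and sham arrays. Myl7, an atrial myosin light chain, reached 2.20 on CHIP-/- sham replicate 1 and 3.82 and 1.89 on wild-type sham replicates 1 and 3, against 0.17 or less elsewhere. Feature Extraction's outlier marks fell on 5 to 14 member spots of each CHIP-/- sham array and on 0 to 3 of every other array. Marked spots were left out, which left 5 bright members without enough values to be tested and 52 tested members of 14860 tested probes. All members but 1 probe of Atp5s were well above background on all 16 arrays, and none was saturated in the heart channel.

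Promoter sequences of 6 members are shown because these genes carry the contrasts described below: Sdha, whose transcript fell most after TAB, the muscle isoforms Cox7a1 and Cox8b, and the ubiquitous isoforms Cox6a1, Cox7a2 and Cox8a. Each runs 5′ to 3′ on the strand of the gene, from 250 bases before the annotated start to 50 bases after it, from RefSeq on GRCm38.p6. Sdha lies on the minus strand at chr13:74350191-74350490, Cox7a1 on the plus strand at chr7:30183921-30184220, Cox8b on the minus strand at chr7:140900397-140900696, Cox6a1 on the minus strand at chr5:115348909-115349208, Cox7a2 on the minus strand at chr9:79759804-79760103 and Cox8a on the minus strand at chr19:7217567-7217866. Capitals mark matches to 4 short motifs searched on both strands.
Sdha: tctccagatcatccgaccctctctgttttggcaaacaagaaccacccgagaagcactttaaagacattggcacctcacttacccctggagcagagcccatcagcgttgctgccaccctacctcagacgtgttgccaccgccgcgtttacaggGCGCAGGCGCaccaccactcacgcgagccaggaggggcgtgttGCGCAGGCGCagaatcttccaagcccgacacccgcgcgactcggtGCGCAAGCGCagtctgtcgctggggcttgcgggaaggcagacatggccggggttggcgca
Cox7a1: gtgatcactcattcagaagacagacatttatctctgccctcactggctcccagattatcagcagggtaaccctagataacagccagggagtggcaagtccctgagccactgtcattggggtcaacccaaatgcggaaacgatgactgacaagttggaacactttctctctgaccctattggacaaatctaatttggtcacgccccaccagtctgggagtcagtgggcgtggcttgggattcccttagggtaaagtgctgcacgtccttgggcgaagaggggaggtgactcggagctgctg
Cox8b: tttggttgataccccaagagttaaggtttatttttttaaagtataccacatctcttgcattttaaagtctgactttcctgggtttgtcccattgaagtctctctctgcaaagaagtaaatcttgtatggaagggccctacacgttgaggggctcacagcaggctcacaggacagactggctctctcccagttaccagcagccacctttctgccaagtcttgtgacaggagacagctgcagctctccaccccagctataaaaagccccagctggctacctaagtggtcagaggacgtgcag
Cox6a1: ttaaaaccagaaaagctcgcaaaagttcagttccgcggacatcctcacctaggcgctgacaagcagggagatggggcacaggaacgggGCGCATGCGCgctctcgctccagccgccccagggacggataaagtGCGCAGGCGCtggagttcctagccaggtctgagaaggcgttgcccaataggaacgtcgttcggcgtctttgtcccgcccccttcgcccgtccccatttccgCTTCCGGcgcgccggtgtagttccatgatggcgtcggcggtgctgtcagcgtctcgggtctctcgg
Cox7a2: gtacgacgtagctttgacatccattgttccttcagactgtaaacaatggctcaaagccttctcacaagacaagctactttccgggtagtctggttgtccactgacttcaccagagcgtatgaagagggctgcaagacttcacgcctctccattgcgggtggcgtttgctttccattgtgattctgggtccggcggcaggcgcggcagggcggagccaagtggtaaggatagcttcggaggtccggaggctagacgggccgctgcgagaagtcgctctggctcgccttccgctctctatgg
Cox8a: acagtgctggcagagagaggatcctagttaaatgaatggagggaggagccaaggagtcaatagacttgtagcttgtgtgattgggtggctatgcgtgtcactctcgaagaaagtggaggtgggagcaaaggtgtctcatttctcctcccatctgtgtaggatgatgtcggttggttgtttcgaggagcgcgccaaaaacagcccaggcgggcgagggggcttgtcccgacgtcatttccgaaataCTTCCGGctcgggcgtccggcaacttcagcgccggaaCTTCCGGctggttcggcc

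The motifs included a core of sites for nuclear respiratory factor 1, with any base allowed at 1 inner position (the NRF1 core). CCGGAAG is a core of ETS family sites such as those of GABP, and AAGGTCA is the half-site of estrogen-related receptors. The MEF2 core kept only the outer letters of the core of MEF2 sites, with any bases allowed between them. Promoters were found for 34 of the 44 member genes, 37 in all, and no match of one motif overlapped a match of another. The NRF1 core was in 10 of the 37 member promoters (27%), against 4.6% of the 32851 promoters in the table. The CCGGAAG motif was in 12 member promoters (32.4%), against 8.86% of all promoters. AAGGTCA was in 5 member promoters (13.5%), against 4.72% of all, and the MEF2 core in 1 (2.7%), against 3.69% of all. Sdha held 3 matches to the NRF1 core, and Cox6a1 held 2 with 1 match to CCGGAAG. Cox8a held 2 matches to CCGGAAG, while the windows of Cox7a1, Cox7a2 and Cox8b held none of the 4 motifs. These matches describe letters in the windows shown, not binding.

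With TAB in CHIP-/- hearts, transcripts from each of complexes II to V fell. Of the 52 tested members, 36 fell and 2 rose, where 22.7% of all tested probes fell and 21.3% rose (limma, Benjamini-Hochberg adjusted p below 0.05). The median member difference was -0.41, against -0.02 over all tested probes. With TAB in wild-type hearts 16 members fell and 8 rose, where 17.2% of all probes fell and 16.4% rose, and the median member difference was -0.01. After TAB, CHIP-/- hearts were lower than wild-type hearts in 38 of the 52 members and higher in none, where 5.58% of all probes were lower and 4.5% higher. The median member difference there was -0.31, against -0.01 over all probes. After sham surgery none of the 52 members differed between the genotypes, where limma called 0.0336% of all probes; 1 member had an unadjusted p below 0.05, and the count stayed 0 under every processing setting tried. The median member difference between CHIP-/- and wild-type sham hearts was 0.04. The genotype comparison after TAB and the interaction share their TAB arrays with the TAB comparisons. The arrays of the groups compared did not overlap, with the TAB or CHIP-/- group lower, for 35 members with TAB in CHIP-/- (20.4% of all probes), 14 with TAB in wild type (15.5%) and 18 between the genotypes after TAB (6.35%).

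The directions of the TAB responses depended on how the arrays were normalized. With the median of each array set to 0 in place of loess, which also removes trends along brightness, 48 members fell and none rose in CHIP-/- hearts, where 44% of all tested probes fell. In wild-type hearts 39 fell and none rose, where 35.7% of all probes fell. The median of all probes then moved to -0.21 in CHIP-/- and -0.18 in wild type, and the median member difference to -0.94 and -0.51. The median member was still lower than the median of all tested probes in both genotypes with median centring, which leaves trends along brightness in. Of the 297 tested probes with a mean log2 heart signal of 12 or more, 33 were members. The median of those 297 bright probes was itself -0.66 in CHIP-/- and -0.37 in wild type with median centring. The sign of the TAB difference turned between the normalizations for 3 of the 52 members in CHIP-/- and 25 in wild type. The 4 members that did not pass with TAB in CHIP-/- with median centring were Cox6a1, Cox8a, Cox4nb and the dim probe of Atp5s, so every other subunit described below as not passing in CHIP-/- with loess fell with median centring. The genotype difference after TAB kept its size, with a median member difference of -0.35 against -0.31 with loess, but 7 rather than 38 members passed, where 1.55% of all probes were lower with median centring, with a median standard error of 0.14 against 0.07. Values below are from loess unless stated.

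**Figure D1:**
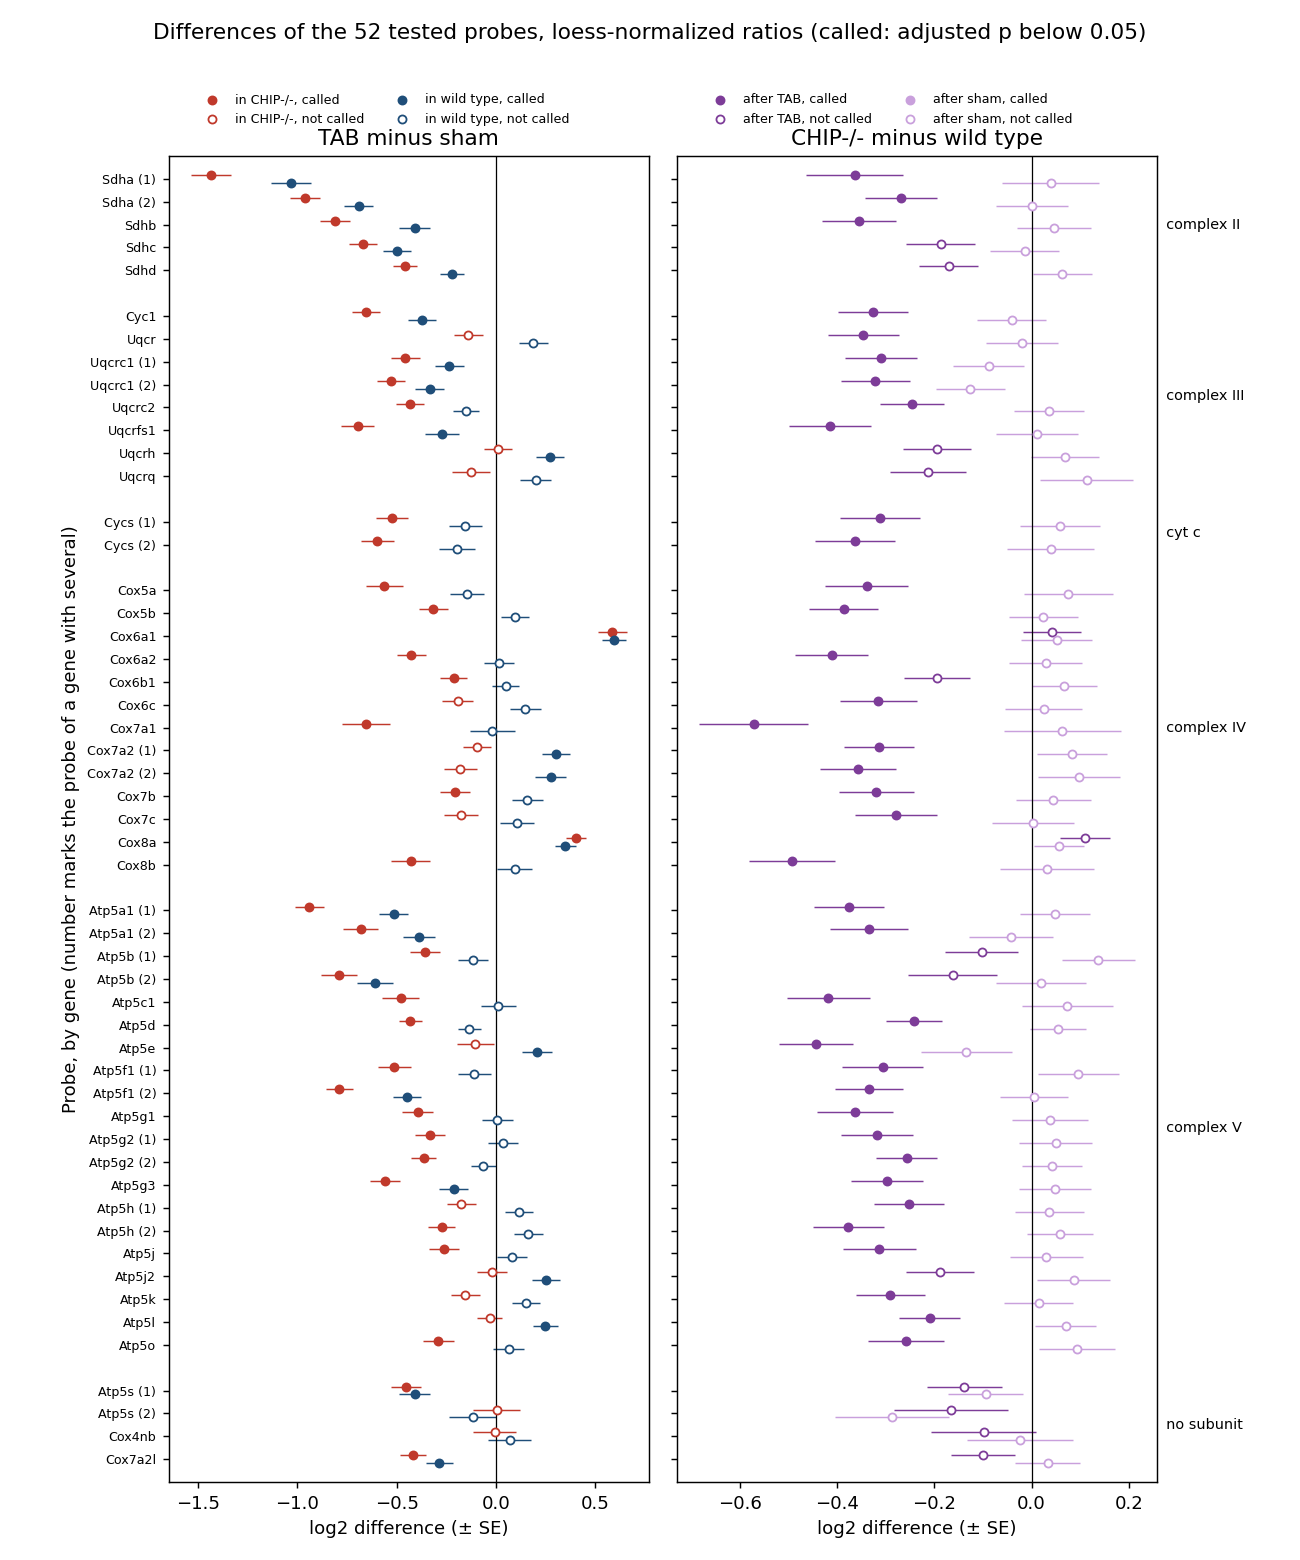
Log2 differences (± SE) of the 52 tested probes with loess, by complex, for TAB minus sham in CHIP-/- and in wild type (left) and for CHIP-/- minus wild type after TAB and after sham (right). Filled points have a limma adjusted p below 0.05; most probes are lower in CHIP-/- after TAB and none is filled after sham. With median centring in place of loess no probe was called higher in either TAB comparison.

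**Figure D2:**
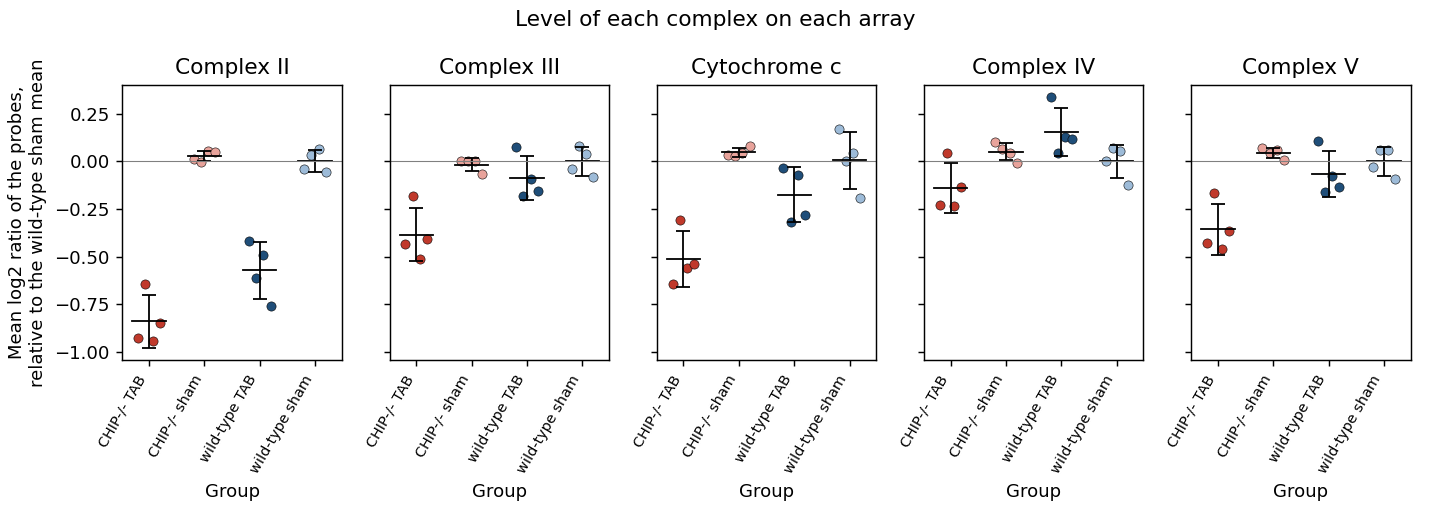
Mean log2 ratio of the probes of each complex on each array, relative to the wild-type sham mean of each probe, with loess; lines and bars are the mean and SD of the 4 arrays of a group. Complex II was lowest on TAB arrays of both genotypes, and complex IV averaged -0.14 on CHIP-/- TAB arrays and 0.16 on wild-type TAB arrays. With median centring the median complex IV difference in wild type was -0.33.

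Complex II, succinate dehydrogenase, takes part in both the tricarboxylic acid cycle and the respiratory chain, and each of its transcripts fell with TAB. All 5 probes of its 4 genes fell after TAB in both genotypes, with a median of -0.81 in CHIP-/- and -0.50 in wild type. All 5 fell with median centring too. Between the genotypes after TAB, 3 of the 5 were lower in CHIP-/- with loess and 0 with median centring, with medians of -0.27 and -0.26. Relative to wild-type sham hearts, the mean of the 5 probes was -0.84 ± 0.14 on CHIP-/- TAB arrays, 0.03 ± 0.03 on CHIP-/- sham arrays and -0.57 ± 0.15 on wild-type TAB arrays (SD, n = 4 each).

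Sdha encodes the flavoprotein that oxidises succinate, and its probe A_51_P410823 gave log2 ratios of 0.48, 1.01, 0.56 and 0.63 on CHIP-/- TAB arrays, 2.09, 2.05, 2.17 and 2.10 on CHIP-/- sham arrays, 1.19, 1.08, 1.17 and 0.69 on wild-type TAB arrays and 2.08, 2.08, 2.12 and 1.98 on wild-type sham arrays. Every TAB array lay below every sham array, and the TAB groups overlapped only in that CHIP-/- TAB replicate 2 lay above wild-type TAB replicate 4. With TAB it fell in CHIP-/- (-1.43, SE 0.10, adjusted p = 1.39e-10) and in wild type (-1.03, SE 0.10, adjusted p = 6.37e-08), the largest fall of the 52 tested members in each genotype. The other Sdha probe, A_52_P109503, read 0.41, 0.54, 0.34 and 0.39 on CHIP-/- TAB arrays, 1.39, 1.31, 1.42 and 1.39 on CHIP-/- sham arrays, 0.83, 0.70, 0.79 and 0.43 on wild-type TAB arrays and 1.30, 1.38, 1.49 and 1.34 on wild-type sham arrays. It separated TAB from sham arrays in both genotypes, with differences of -0.96 in CHIP-/- and -0.69 in wild type. After TAB both Sdha probes were lower in CHIP-/- than in wild type (-0.36, SE 0.10, adjusted p = 0.0207 and -0.27, SE 0.07, adjusted p = 0.0215).

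Sdhb, the iron-sulphur subunit, was at 0.31, 0.61, 0.24 and 0.34 on CHIP-/- TAB arrays, 1.14, 1.15, 1.18 and 1.26 on CHIP-/- sham arrays, 0.91, 0.62, 0.76 and 0.62 on wild-type TAB arrays and 1.03, 1.20, 1.23 and 1.10 on wild-type sham arrays. The TAB and sham arrays did not overlap in either genotype, and CHIP-/- TAB arrays all lay below wild-type TAB arrays. Sdhb fell in CHIP-/- (-0.81, SE 0.08, adjusted p = 8.89e-09) and in wild type (-0.41, SE 0.08, adjusted p = 0.000196) and was lower in CHIP-/- after TAB (-0.35, SE 0.08, adjusted p = 0.00332). The membrane anchor Sdhc had log2 ratios of 0.87, 1.18, 0.84 and 1.02 on CHIP-/- TAB arrays, 1.61, 1.65, 1.64 and 1.68 on CHIP-/- sham arrays, 1.28, 1.11, 1.25 and 1.02 on wild-type TAB arrays and 1.62, 1.71, 1.69 and 1.62 on wild-type sham arrays. Sdhc fell in CHIP-/- (-0.67) and in wild type (-0.50) with no overlap between TAB and sham, and the TAB groups overlapped without passing (-0.19, SE 0.07, adjusted p = 0.102). Sdhd, the other anchor, had 0.54, 0.70, 0.53 and 0.63 on CHIP-/- TAB arrays, 1.05, 1.06, 1.08 and 1.04 on CHIP-/- sham arrays, 0.94, 0.67, 0.80 and 0.68 on wild-type TAB arrays and 1.00, 1.03, 1.02 and 0.92 on wild-type sham arrays. Sdhd fell in CHIP-/- (-0.46) and in wild type (-0.22), and its genotype difference after TAB did not pass (-0.17, SE 0.06, adjusted p = 0.0806).

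Complex III transfers electrons from ubiquinol to cytochrome c, and its catalytic and core subunits fell in CHIP-/- while its small accessory subunits did not pass or, for Uqcrb, could be read only with marked spots kept. With loess, 5 of 8 tested probes fell in CHIP-/- (median -0.44), and 4 fell and 1 rose in wild type (median -0.19); with median centring 8 and 6 fell and none rose. After TAB, 6 of the 8 were lower in CHIP-/- than in wild type with loess and 1 with median centring, with medians of -0.32 and -0.35.

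Uqcrfs1, the Rieske iron-sulphur protein, read 1.73, 2.15, 1.66 and 1.80 on CHIP-/- TAB arrays, 2.55, 2.49, 2.58 and 2.50 on CHIP-/- sham arrays, 2.47, 2.17, 2.22 and 2.14 on wild-type TAB arrays and 2.51, 2.58, 2.60 and 2.39 on wild-type sham arrays. Uqcrfs1 fell in CHIP-/- (-0.70, SE 0.09, adjusted p = 4.73e-07) and in wild type (-0.27, SE 0.09, adjusted p = 0.0165), where wild-type TAB replicate 1 lay among the sham arrays. Cyc1, the haem-bearing cytochrome of the complex, was at 0.68, 0.97, 0.61 and 0.64 on CHIP-/- TAB arrays, 1.40, 1.35, 1.42 and 1.35 on CHIP-/- sham arrays, 1.17, 0.99, 1.10 and 0.94 on wild-type TAB arrays and 1.45, 1.48, 1.46 and 1.29 on wild-type sham arrays. Its TAB arrays lay below its sham arrays in both genotypes, with differences of -0.66 in CHIP-/- and -0.37 in wild type. After TAB, Uqcrfs1 was lower in CHIP-/- (-0.41, SE 0.09, adjusted p = 0.00235), as was Cyc1 (-0.33, SE 0.07, adjusted p = 0.00396).

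The core proteins Uqcrc1 and Uqcrc2 carry no redox centre. The brighter Uqcrc1 probe, A_51_P109828, had 1.51, 1.86, 1.41 and 1.56 on CHIP-/- TAB arrays, 2.01, 2.05, 2.06 and 2.04 on CHIP-/- sham arrays, 2.02, 1.82, 1.87 and 1.87 on wild-type TAB arrays and 2.04, 2.20, 2.14 and 2.13 on wild-type sham arrays. Probe A_51_P109835 of the same gene had 1.14, 1.35, 1.02 and 1.09 on CHIP-/- TAB arrays, 1.61, 1.66, 1.75 and 1.71 on CHIP-/- sham arrays, 1.64, 1.38, 1.52 and 1.35 on wild-type TAB arrays and 1.75, 1.91, 1.77 and 1.80 on wild-type sham arrays. Both fell in CHIP-/- (-0.46 and -0.53) and in wild type (-0.23 and -0.33), and both were lower in CHIP-/- after TAB (-0.31 and -0.32). Uqcrc2 had 1.14, 1.34, 1.06 and 1.09 on CHIP-/- TAB arrays, 1.59, 1.64 and 1.54 on CHIP-/- sham arrays, 1.52, 1.36, 1.42 and 1.32 on wild-type TAB arrays and 1.49, 1.64, 1.60 and 1.48 on wild-type sham arrays, with 3 values in CHIP-/- sham. Uqcrc2 fell in CHIP-/- (-0.43, SE 0.07, adjusted p = 3.38e-05) and did not pass in wild type with loess (-0.15, SE 0.07, adjusted p = 0.0847), where the groups overlapped. It fell in wild type too (-0.65) with median centring.

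Among the small accessory subunits, Uqcr, now named Uqcr11, Uqcrh and Uqcrq did not pass in CHIP-/- with loess, at -0.14, 0.01 and -0.13. In wild type Uqcrh rose (0.27, SE 0.07, adjusted p = 0.00387) with loess but was at -0.25 with median centring without passing. Uqcr and Uqcrq were at 0.19 and 0.20 in wild type without passing with loess, against -0.30 without passing and -0.36, which passed, with median centring. After TAB, Uqcr was lower in CHIP-/- (-0.35, SE 0.07, adjusted p = 0.00309), and Uqcrh and Uqcrq did not pass at -0.19 and -0.21. Uqcrb and a further probe of Uqcrh had too many marked spots to be tested; with those spots kept, Uqcrb read 1.26, 1.56, 1.27 and 1.37 on CHIP-/- TAB arrays, 1.82, 1.86, 1.79 and 1.85 on CHIP-/- sham arrays, 1.94, 1.60, 1.75 and 1.73 on wild-type TAB arrays and 1.90, 1.86, 1.74 and 1.74 on wild-type sham arrays. On those values Uqcrb fell in CHIP-/- (-0.47, SE 0.07, adjusted p = 1.13e-05), did not pass in wild type (-0.06) and was lower in CHIP-/- after TAB (-0.39, SE 0.07, adjusted p = 0.000801).

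Cytochrome c, encoded in somatic cells by Cycs, shuttles electrons between complexes III and IV. Its probe A_51_P261671 gave 2.25, 2.51, 2.33 and 2.31 on CHIP-/- TAB arrays, 2.90, 2.82, 2.89 and 2.88 on CHIP-/- sham arrays, 2.86, 2.51, 2.74 and 2.54 on wild-type TAB arrays and 2.99, 2.83, 2.86 and 2.59 on wild-type sham arrays. Probe A_52_P82247 gave 1.97, 2.39, 2.07 and 2.12 on CHIP-/- TAB arrays, 2.69, 2.75, 2.71 and 2.80 on CHIP-/- sham arrays, 2.58, 2.37, 2.63 and 2.42 on wild-type TAB arrays and 2.86, 2.69 and 2.54 on wild-type sham arrays, with 3 values in wild-type sham. In CHIP-/- every TAB array lay below every sham array for both probes, while the wild-type groups overlapped. With loess, both fell in CHIP-/- (-0.52, SE 0.08, adjusted p = 1.44e-05 and -0.60, SE 0.08, adjusted p = 3.29e-06) and neither passed in wild type (-0.15 and -0.20); with median centring both also fell in wild type (-0.54 and -0.59). After TAB both were lower in CHIP-/- than in wild type with loess (-0.31 and -0.36), and neither passed with median centring (-0.33 and -0.38).

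Complex IV, cytochrome c oxidase, reduces oxygen to water, and the sign of its response to TAB in wild type depended on the normalization. With loess, 7 of its 13 tested probes fell and 2 rose in CHIP-/- (median -0.21), and none fell and 4 rose in wild type (median 0.11). With median centring 11 fell in CHIP-/- and 7 in wild type and none rose in either (medians -0.81 and -0.33). After TAB, 10 of the 13 were lower in CHIP-/- than in wild type with loess and 4 with median centring, with medians of -0.32 and -0.38.

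Cox5a, which sits on the matrix side of the enzyme, read 1.31, 1.68, 1.29 and 1.41 on CHIP-/- TAB arrays, 2.00, 1.96 and 1.99 on CHIP-/- sham arrays, 1.98, 1.64, 1.71 and 1.71 on wild-type TAB arrays and 1.95, 1.98, 1.96 and 1.74 on wild-type sham arrays, with 3 values in CHIP-/- sham. Cox5a fell in CHIP-/- (-0.56, SE 0.09, adjusted p = 2.94e-05) with no overlap, and its wild-type groups overlapped with loess (-0.15, SE 0.08, adjusted p = 0.195). Cox5a fell in wild type too (-0.72) with median centring. Cox5b, the zinc-binding subunit, was at 1.67, 1.94, 1.65 and 1.70 on CHIP-/- TAB arrays, 2.07, 2.06, 2.07 and 2.01 on CHIP-/- sham arrays, 2.32, 2.02, 2.05 and 2.12 on wild-type TAB arrays and 2.00, 2.11, 2.08 and 1.93 on wild-type sham arrays. Cox5b fell in CHIP-/- (-0.31, SE 0.07, adjusted p = 0.00089); in wild type it was at 0.10 without passing with loess and fell (-0.42) with median centring. After TAB both were lower in CHIP-/-, Cox5a (-0.34, SE 0.08, adjusted p = 0.0114) and Cox5b (-0.39, SE 0.07, adjusted p = 0.000843).

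Cox4i1, the largest nuclear subunit, could be read only with the marked spots kept, at 1.55, 1.74, 1.46 and 1.62 on CHIP-/- TAB arrays, 1.93, 1.88, 2.00 and 1.94 on CHIP-/- sham arrays, 2.08, 1.82, 1.87 and 1.90 on wild-type TAB arrays and 1.75, 1.97, 1.92 and 1.80 on wild-type sham arrays. On those values every CHIP-/- TAB array lay below every other array, and Cox4i1 fell in CHIP-/- (-0.34, SE 0.07, adjusted p = 0.0003), did not pass in wild type (0.05) and was lower in CHIP-/- after TAB (-0.32, SE 0.07, adjusted p = 0.00357). Of the small subunits Cox6b1, Cox6c, Cox7b and Cox7c, Cox6b1 and Cox7b fell in CHIP-/- (-0.21 and -0.21), and Cox6c and Cox7c did not pass (-0.19 and -0.18). None of the 4 passed in wild type with loess, where they lay between 0.05 and 0.16; with median centring Cox6c and Cox7b fell (-0.36 and -0.33). After TAB, Cox6c, Cox7b and Cox7c were lower in CHIP-/- (-0.32, -0.32 and -0.28), and Cox6b1 did not pass at -0.19.

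Subunits 6a, 7a and 8 of complex IV exist as a heart and skeletal muscle form (Cox6a2, Cox7a1, Cox8b) and a ubiquitous form (Cox6a1, Cox7a2, Cox8a), and with loess the muscle forms fell in CHIP-/- while the ubiquitous forms rose or did not pass; with median centring Cox7a2 fell there too (-0.67 and -0.73). Cox7a1 had log2 ratios of 2.83, 3.43, 2.90 and 3.08 on CHIP-/- TAB arrays, 3.78, 3.78 and 3.58 on CHIP-/- sham arrays, 3.95, 3.41, 3.69 and 3.48 on wild-type TAB arrays and 3.56, 3.74, 3.72 and 3.58 on wild-type sham arrays, with 3 values in CHIP-/- sham. Cox7a1 fell in CHIP-/- (-0.65, SE 0.12, adjusted p = 0.000125) with no overlap, was at -0.02 in wild type with overlapping groups, where it fell (-0.54) with median centring, and was lower in CHIP-/- after TAB (-0.57, SE 0.11, adjusted p = 0.00167), the largest genotype difference of any member. Cox8b was at 2.55, 3.00, 2.64 and 2.86 on CHIP-/- TAB arrays, 3.27, 3.16 and 3.15 on CHIP-/- sham arrays, 3.51, 3.07, 3.26 and 3.20 on wild-type TAB arrays and 3.16, 3.23, 3.20 and 3.07 on wild-type sham arrays, with 3 values in CHIP-/- sham. Cox8b fell in CHIP-/- (-0.43, SE 0.10, adjusted p = 0.000897) and was lower there after TAB (-0.49, SE 0.09, adjusted p = 0.000816); in wild type it was at 0.09 without passing with loess and fell (-0.39) with median centring. The muscle form Cox6a2 gave 3.38, 3.62, 3.29 and 3.51 on CHIP-/- TAB arrays, 3.88, 3.87, 3.89 and 3.86 on CHIP-/- sham arrays, 4.08, 3.72, 3.81 and 3.84 on wild-type TAB arrays and 3.79, 3.93, 3.92 and 3.74 on wild-type sham arrays. Cox6a2 fell in CHIP-/- (-0.42, SE 0.08, adjusted p = 6.62e-05) and was lower there after TAB (-0.41, SE 0.08, adjusted p = 0.000816), and in wild type it was at 0.02 without passing with loess and fell (-0.51) with median centring. These 3 muscle genes were also among the 7 members still lower in CHIP-/- after TAB with median centring, at -0.64, -0.55 and -0.48. The others were no muscle isoforms: Atp5e (-0.52), Atp5c1 (-0.51), Uqcrfs1 (-0.46) and Cox5b (-0.45).

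The ubiquitous Cox6a1 read -1.37, -1.39, -1.34 and -1.48 on CHIP-/- TAB arrays, -1.996 and -1.97 on CHIP-/- sham arrays, -1.41, -1.49, -1.50 and -1.34 on wild-type TAB arrays and -2.04, -1.92, -2.09 and -2.08 on wild-type sham arrays, with 2 values in CHIP-/- sham. Every TAB array lay above every sham array in both genotypes, and Cox6a1 rose in CHIP-/- (0.59, SE 0.07, adjusted p = 1.14e-06) and in wild type (0.60, SE 0.06, adjusted p = 1.88e-07) with loess, against -0.16 and 0.06 with median centring, neither of which passed. Cox8a had -0.34, -0.34, -0.47 and -0.34 on CHIP-/- TAB arrays, -0.73, -0.76, -0.77 and -0.82 on CHIP-/- sham arrays, -0.47, -0.49, -0.52 and -0.43 on wild-type TAB arrays and -0.83, -0.77, -0.87 and -0.85 on wild-type sham arrays. It too separated TAB from sham arrays, and rose in CHIP-/- (0.40, SE 0.05, adjusted p = 9.31e-07) and in wild type (0.35, SE 0.05, adjusted p = 1.43e-05) with loess, against -0.19 and -0.13 with median centring without passing. Neither gene differed between the genotypes after TAB beyond the threshold (0.04 for Cox6a1 and 0.11 for Cox8a).

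Cox7a2 had 2 probes, and probe A_51_P319031 gave 1.02, 1.24, 1.03 and 1.10 on CHIP-/- TAB arrays, 1.27, 1.23, 1.14 and 1.12 on CHIP-/- sham arrays, 1.57, 1.31, 1.39 and 1.37 on wild-type TAB arrays and 1.20, 1.13, 1.19 and 0.91 on wild-type sham arrays. Probe A_52_P37894 gave 1.02, 1.37, 1.11 and 1.21 on CHIP-/- TAB arrays, 1.42, 1.38 and 1.27 on CHIP-/- sham arrays, 1.72, 1.42, 1.54 and 1.46 on wild-type TAB arrays and 1.36, 1.28, 1.30 and 1.09 on wild-type sham arrays, with 3 values in CHIP-/- sham. In wild type both rose with loess (0.30, SE 0.07, adjusted p = 0.00211 and 0.28, SE 0.08, adjusted p = 0.00863) and stood at -0.16 and -0.17 with median centring without passing, while in CHIP-/- neither passed (-0.09 and -0.18). Both were lower in CHIP-/- after TAB (-0.31 and -0.36).

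Subtracting the ubiquitous from the muscle form on each array removes whatever the array adds to both, and the mean of this difference was lower after TAB in each pair. The brightest probe stood for Cox7a2. Cox8b minus Cox8a was 2.89, 3.34, 3.11 and 3.20 in CHIP-/- TAB, 4.03, 3.94 and 3.98 in CHIP-/- sham, 3.98, 3.56, 3.78 and 3.63 in wild-type TAB, and 3.99, 3.99, 4.07 and 3.92 in wild-type sham. CHIP-/- TAB arrays thus lay below all other arrays for this pair. For Cox8b minus Cox8a, the TAB mean minus the sham mean was -0.84 in CHIP-/- and -0.25 in wild type, and the mean in CHIP-/- TAB minus that in wild-type TAB was -0.60. For Cox6a2 minus Cox6a1, TAB minus sham was -0.996 in CHIP-/-, where 2 sham arrays had a value, and -0.58 in wild type, and CHIP-/- TAB minus wild-type TAB was -0.45. The same differences for Cox7a1 minus Cox7a2 were -0.54, -0.32 and -0.26. Between the sham groups the 3 pairs differed by -0.04, -0.04 and -0.01.

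In 2-sided exact permutation tests, with 0.0286 the smallest p that the arrays allow, p was 0.0286 for Cox8b minus Cox8a with TAB in CHIP-/- and between the genotypes after TAB. It was 0.0286 also for Cox6a2 minus Cox6a1 with TAB in wild type and between the genotypes after TAB. With 2 sham values, 0.0667 is the smallest p allowed for Cox6a2 minus Cox6a1 with TAB in CHIP-/-, and it was reached. The other differences with TAB or between TAB groups gave exact p of 0.0571 to 0.0857, and none of the 12 differences passed after Benjamini-Hochberg adjustment, the lowest adjusted p being 0.0857. Cox4i2 was well above background on no array, so the pair Cox4i1 and Cox4i2 was not compared.

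**Figure D3:**
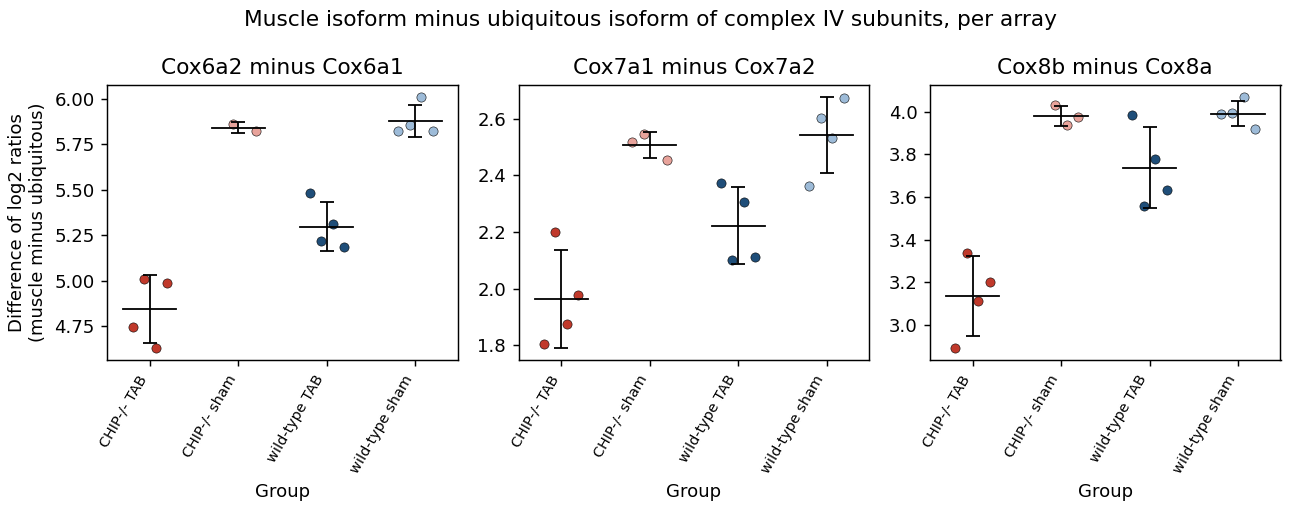
Difference of the log2 ratios of the muscle and the ubiquitous isoform of 3 complex IV subunits on each array, with the mean and SD of each group. CHIP-/- TAB arrays are lowest in the mean of every pair (4.85, 1.96 and 3.14), and arrays on which an isoform's spot was marked have no point.

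Complex V makes ATP with a catalytic head in the matrix and a proton channel in the membrane. With loess, 15 of its 20 tested probes fell in CHIP-/- and none rose (median -0.36), where 22.7% of all tested probes fell and 21.3% rose. In wild type 5 fell and 3 rose (median 0.01), where 17.2% of all tested probes fell and 16.4% rose. With median centring 20 fell in CHIP-/-, 17 fell in wild type and none rose, where 44% and 35.7% of all tested probes fell. After TAB, 17 of the 20 were lower in CHIP-/- than in wild type with loess and 2 with median centring, with medians of -0.30 and -0.35.

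Atp5a1, the alpha subunit of the head, had 2 probes. Probe A_51_P402496 gave 1.40, 1.60, 1.34 and 1.57 on CHIP-/- TAB arrays, 2.50, 2.45, 2.45 and 2.27 on CHIP-/- sham arrays, 2.01, 1.78, 1.82 and 1.80 on wild-type TAB arrays and 2.46, 2.37, 2.41 and 2.23 on wild-type sham arrays. TAB arrays lay below sham arrays in both genotypes, and CHIP-/- TAB arrays lay below wild-type TAB arrays. With TAB it fell in CHIP-/- (-0.94, SE 0.07, adjusted p = 4.48e-10) and in wild type (-0.52, SE 0.07, adjusted p = 6.67e-06) and was lower in CHIP-/- after TAB (-0.38, SE 0.07, adjusted p = 0.00119). Probe A_52_P674489, with 3 values in CHIP-/- sham, gave 0.45, 0.76, 0.35 and 0.53 on CHIP-/- TAB arrays, 1.26, 1.20 and 1.15 on CHIP-/- sham arrays, 1.04, 0.81, 0.78 and 0.80 on wild-type TAB arrays and 1.23, 1.30, 1.35 and 1.11 on wild-type sham arrays. This probe fell in CHIP-/- (-0.68) and in wild type (-0.39), again without overlap, and was lower in CHIP-/- after TAB (-0.34).

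Atp5b, the beta subunit with the catalytic sites, gave 1.38, 1.62, 1.29 and 1.46 on CHIP-/- TAB arrays, 1.88, 1.76, 1.87 and 1.66 on CHIP-/- sham arrays, 1.65, 1.54, 1.47 and 1.49 on wild-type TAB arrays and 1.61, 1.72, 1.75 and 1.53 on wild-type sham arrays at probe A_52_P328078, the brightest of its probes. That probe fell (-0.35, SE 0.08, adjusted p = 0.00051) in CHIP-/- and did not pass in wild type with loess (-0.11, SE 0.08, adjusted p = 0.26), where the groups overlapped. It fell in wild type too (-0.73) with median centring. Probe A_52_P553841 gave 0.32, 0.66, 0.29 and 0.23 on CHIP-/- TAB arrays, 1.17, 1.15, 1.31 and 1.02 on CHIP-/- sham arrays, 0.68, 0.62, 0.57 and 0.27 on wild-type TAB arrays and 1.02, 1.22, 1.22 and 1.12 on wild-type sham arrays. With TAB it fell in CHIP-/- (-0.79, SE 0.09, adjusted p = 2.24e-07) and in wild type (-0.61, SE 0.09, adjusted p = 1.88e-05) without overlap. The third probe, A_51_P207636, read with marked spots kept, fell in CHIP-/- (-0.68) and in wild type (-0.51). No Atp5b probe differed between the genotypes after TAB beyond the threshold (-0.10, -0.16 and -0.13).

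Atp5o, the stalk protein that joins head and membrane part, was at 1.22, 1.53, 1.18 and 1.29 on CHIP-/- TAB arrays, 1.63, 1.56, 1.62 and 1.58 on CHIP-/- sham arrays, 1.76, 1.43, 1.53 and 1.55 on wild-type TAB arrays and 1.40, 1.62, 1.59 and 1.41 on wild-type sham arrays. Atp5o fell in CHIP-/- (-0.29, SE 0.08, adjusted p = 0.00424) and was lower there after TAB (-0.26, SE 0.08, adjusted p = 0.0363); in wild type it was at 0.06 with loess and fell (-0.50) with median centring. Atp5e, the small epsilon subunit, gave 1.58, 1.79, 1.49 and 1.58 on CHIP-/- TAB arrays, 1.74 and 1.69 on CHIP-/- sham arrays, 2.21, 1.95, 2.09 and 1.98 on wild-type TAB arrays and 1.77, 1.94, 1.97 and 1.71 on wild-type sham arrays, with 2 values in CHIP-/- sham. Every CHIP-/- TAB array lay below every wild-type TAB array, and the genotype difference passed (-0.44, SE 0.08, adjusted p = 0.000583). In CHIP-/- it did not pass (-0.11), and in wild type Atp5e rose with TAB (0.20, SE 0.08, adjusted p = 0.0426) with loess but fell (-0.33) with median centring, where it passed in the opposite direction. Atp5c1, the gamma subunit that turns in the head, gave 1.31, 1.72, 1.31 and 1.44 on CHIP-/- TAB arrays, 1.96, 1.92 and 1.89 on CHIP-/- sham arrays, 2.08, 1.76, 1.85 and 1.75 on wild-type TAB arrays and 1.80, 1.94, 1.92 and 1.73 on wild-type sham arrays, with 3 values in CHIP-/- sham. Atp5c1 fell in CHIP-/- (-0.48, SE 0.09, adjusted p = 0.000213) and was lower there after TAB (-0.42, SE 0.09, adjusted p = 0.00268); in wild type it was at 0.01 with loess and fell (-0.57) with median centring. Atp5d, the delta subunit, fell in CHIP-/- (-0.43) and was lower there after TAB (-0.24).

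The genes Atp5g1, Atp5g2 and Atp5g3 encode the same c subunit of the rotor ring. All 4 of their probes fell in CHIP-/-, from -0.56 for Atp5g3 to -0.33 for Atp5g2, and all 4 were lower in CHIP-/- after TAB, from -0.36 for Atp5g1 to -0.26 for Atp5g2. In wild type only Atp5g3 fell with loess (-0.21, SE 0.07, adjusted p = 0.0301). All 4 probes fell there with median centring, from -0.81 for Atp5g3 to -0.41 for Atp5g2. Of the stalk subunits, the 2 probes of Atp5f1, now named Atp5pb, fell in CHIP-/- (-0.51 and -0.79), and Atp5h, the d subunit, fell at 1 of 2 probes (-0.27). The small subunits Atp5j2, Atp5k and Atp5l of the membrane part did not pass in CHIP-/- (-0.02, -0.15 and -0.03), while Atp5j fell (-0.26). In wild type Atp5j2 and Atp5l rose with loess (0.25, SE 0.07, adjusted p = 0.00713 and 0.25, SE 0.06, adjusted p = 0.00367) and stood at -0.26 and -0.17 with median centring without passing.

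Cox7a2l, which helps complexes III and IV join in supercomplexes, fell in CHIP-/- (-0.42, SE 0.07, adjusted p = 1.86e-05) and wild type (-0.28, SE 0.07, adjusted p = 0.00189). The brighter probe of Atp5s, now named Dmac2l, fell in CHIP-/- (-0.45) and in wild type (-0.41), and its dim probe did not pass (0.00 and -0.12). Cox4nb, now named Emc8, a protein of the endoplasmic reticulum, was at -0.01 in CHIP-/- and 0.07 in wild type. None of these 4 probes differed between the genotypes after TAB beyond the threshold.

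The interaction, which subtracts the wild-type TAB difference from the CHIP-/- one, was negative for 14 of the 52 members and positive for none, where 2.08% of all probes had a negative and 2.31% a positive one (limma, adjusted p below 0.05). The 14 probes were 1 of complex II, 1 of complex III, 6 of complex IV and 6 of complex V, and the median over the 52 members was -0.32. The 5 largest were those of Cox7a1 (-0.63, SE 0.16, adjusted p = 0.0282), Cox8b (-0.52, SE 0.13, adjusted p = 0.0231), Atp5c1 (-0.49, SE 0.13, adjusted p = 0.0275), Cox7a2 at probe A_52_P37894 (-0.45, SE 0.11, adjusted p = 0.0241) and Cox6a2 (-0.44, SE 0.11, adjusted p = 0.0178). The median stayed between -0.41 and -0.26 under every setting tried, but the count did not. It was 1 with median centring, where 0.633% of all probes had a negative interaction, 1 without the intensity trend, 0 without the 3 sham arrays with Y-linked transcripts and 3 without the 3 with high Myl7. Leaving out single arrays gave 4 without CHIP-/- TAB replicate 1, 34 without replicate 2, 2 without replicate 3 and 9 without replicate 4 of that group. It gave 6 and 4 without CHIP-/- sham replicates 1 and 2, 5 and 24 without wild-type TAB replicates 1 and 2, and 3 without wild-type sham replicate 4. Beyond loess and median centring, the share of all probes called under these settings is not given here. The arrays differed together over the members: CHIP-/- TAB replicate 2 was the highest array of its group for 49 of 52 members and wild-type TAB replicate 1 for 45 of 51.

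Brighter member probes tended to have higher TAB differences than dim ones with loess. Over the 48 subunit probes, the difference with TAB correlated with the mean log2 heart signal at Pearson 0.30 in CHIP-/- and 0.46 in wild type. The Spearman values were 0.25 and 0.34. For the genotype difference after TAB, the correlation with heart signal was -0.25 by Pearson and -0.27 by Spearman. The probes share arrays and samples, and these correlations are descriptions across probes. The dimmest probe of a gene was lower than its brightest in 8 of the 10 genes with TAB in CHIP-/- and in 7 of 10 in wild type. Of the 297 tested probes with a mean log2 heart signal of 12 or more, 33 were members. The median of those 297 with TAB was -0.03 in CHIP-/- and 0.13 in wild type with loess, against -0.66 and -0.37 with median centring. Between the genotypes after TAB it was -0.12 with loess and -0.18 with median centring.

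**Figure D4:**
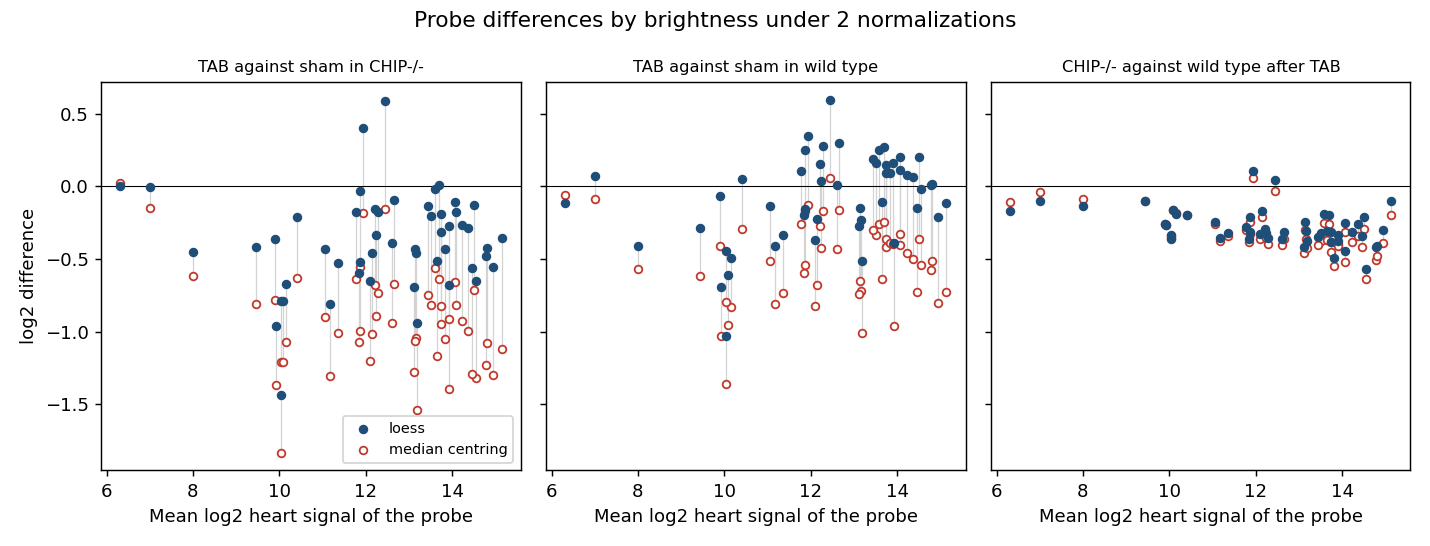
Log2 difference of each tested member probe against its mean log2 heart signal, with loess (filled) and with median centring (open), joined by a line. In both TAB comparisons the open points lie lower for 51 of the 52 probes, the exception being the dim probe of Atp5s, while between the genotypes after TAB the medians are -0.31 and -0.35.

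**Figure D5:**
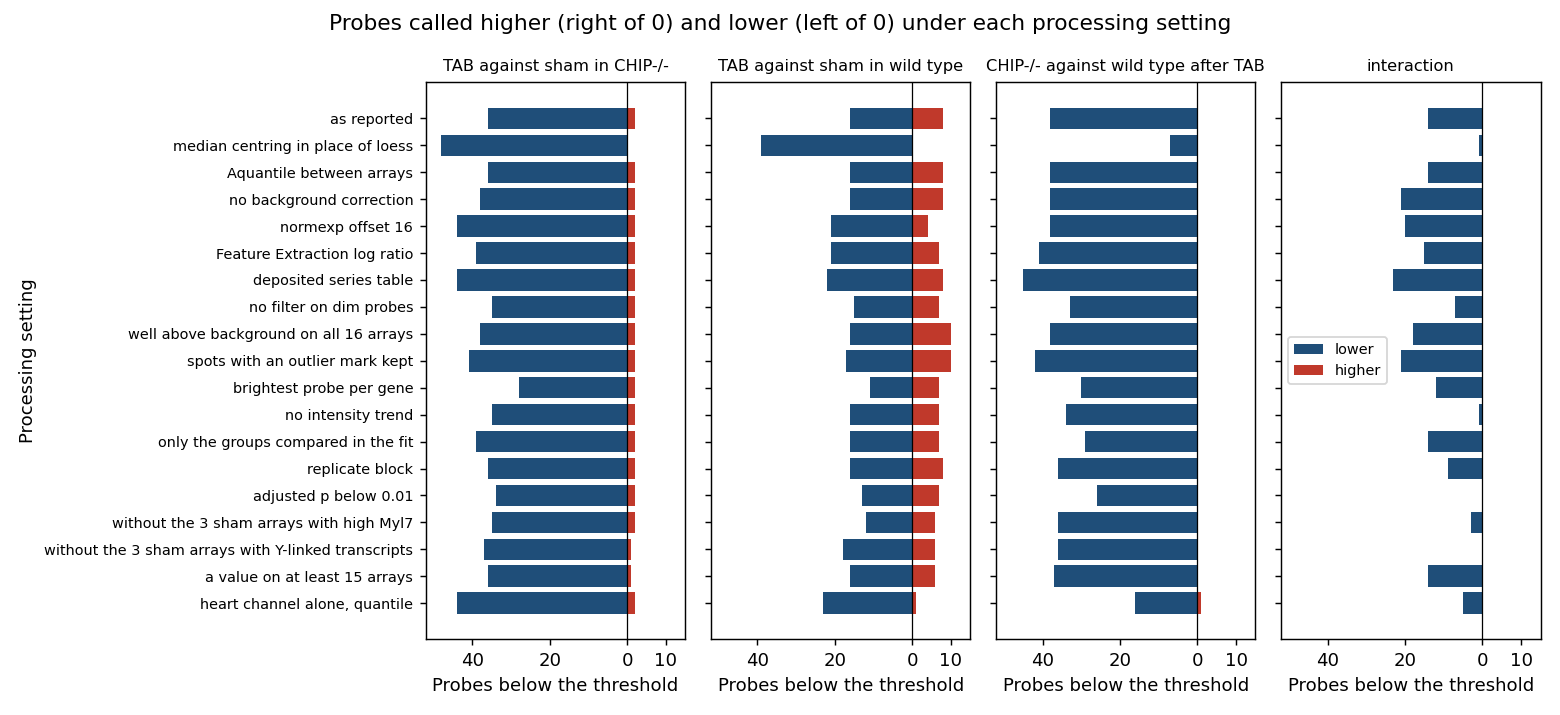
Number of member probes with an adjusted p below the threshold that were lower (left of 0) or higher (right of 0) under each processing setting. With median centring 48 fell in CHIP-/- and 39 in wild type with TAB and 7 were lower in CHIP-/- after TAB. The heart channel alone gave 16 lower and 1 higher in CHIP-/- after TAB. Shares of all tested probes are given in the text for loess and median centring only.

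Genes that work beside these complexes were read from the same fit, with loess. Of 47 complex I (Nduf) probes, 32 fell and 0 rose with TAB in CHIP-/-, 8 fell and 8 rose in wild type, and 36 were lower in CHIP-/- after TAB. With median centring 46 and 32 fell with TAB, none rose, and 6 were lower in CHIP-/- after TAB. The list was taken by name and includes Ndufaf1, which encodes an assembly factor and no subunit. With loess Ndufaf1 fell in CHIP-/- (-0.49) and wild type (-0.22) and was lower in CHIP-/- after TAB (-0.22). All 20 probes of tricarboxylic acid cycle enzymes other than Sdh fell with TAB in both genotypes under either normalization. Their medians with loess were -0.77 in CHIP-/- and -0.53 in wild type. Between the genotypes after TAB, 13 of the 20 were lower in CHIP-/- with loess and 2 with median centring. Of 52 probes of assembly factors, 26 fell and 7 rose in CHIP-/-, 17 fell and 5 rose in wild type, and 6 were lower and 2 higher in CHIP-/- after TAB. With median centring 40 and 33 fell with TAB and none rose, and 1 was lower and none higher in CHIP-/- after TAB. Lrpprc, which stabilises mitochondrial messenger RNA, fell at both probes in CHIP-/- (-0.83 and -0.61) and wild type (-0.48 and -0.41), and Atpaf1, a chaperone for the ATP synthase head, fell likewise (-0.66 and -0.73 in CHIP-/-, -0.35 and -0.46 in wild type). Of 6 probes of subunits outside the member rule, 2 fell and 1 rose in CHIP-/-, 3 rose in wild type, and 3 were lower in CHIP-/- after TAB. With median centring 5 fell in CHIP-/-, 1 fell in wild type, none rose and 1 was lower in CHIP-/- after TAB. Ndufa4, counted today with complex IV and also among the Nduf probes here, was at -0.18 in CHIP-/- without passing and rose by 0.30 in wild type with loess, against -0.79 and -0.19 with median centring, and it was lower in CHIP-/- after TAB with both (-0.45 and -0.51). Subunits made from mitochondrial DNA were not analysed here.

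Of 23 probes of regulators of respiratory genes, 15 fell and 1 rose in CHIP-/-, 13 fell and 1 rose in wild type, and 4 were lower in CHIP-/- after TAB; with median centring 17 fell in each genotype, none rose and 2 were lower in CHIP-/- after TAB. Ppargc1a, the coactivator that raises transcription of mitochondrial genes, supplied 2 of these 4. Its probes fell with TAB in CHIP-/- (-0.91 and -0.75), were at -0.04 without passing and at 0.38, which passed, in wild type with loess, and were lower in CHIP-/- after TAB (-0.94 and -1.09). With median centring the wild-type differences were -0.36, which passed, and 0.14, and the probes stayed lower in CHIP-/- after TAB (-0.93 and -0.94). Its interaction was -0.88 and -1.13 with loess (limma adjusted p = 0.000729 and 0.00113) and -0.94 and -1.03 with median centring (limma adjusted p = 0.000743 and 2.46e-05). Esrra, a nuclear receptor that acts with it, fell at both probes in CHIP-/- (-0.50 and -0.38) and in wild type (-0.30 and -0.37), and so did the single probe of Ppara, a fatty acid receptor (-0.80 and -0.57).

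Markers of the heart's cell types changed with TAB too, and their part in these results was not tested. With loess, cardiomyocyte markers mostly fell, while fibroblast and macrophage markers mostly rose. In whole ventricle, fewer cells of a type and less RNA per cell cannot be told apart. Every gene of the 8 marker lists had at least 1 tested probe, so no defining marker was absent. Of 16 cardiomyocyte probes, 14 fell and 1 rose in CHIP-/- (median -0.68), 9 fell in wild type (median -0.34), and 9 were lower and 1 higher in CHIP-/- after TAB (median -0.37); with median centring 15 fell in each genotype, none rose and 6 were lower in CHIP-/- after TAB. Relative to wild-type sham, their mean level ran from -0.80 to -0.57 on CHIP-/- TAB arrays, from -0.09 to 0.00 on CHIP-/- sham arrays, from -0.49 to -0.27 on wild-type TAB arrays and from -0.10 to 0.05 on wild-type sham arrays. Of 9 fibroblast probes, 8 rose in CHIP-/- and 7 in wild type, and 6 were higher in CHIP-/- after TAB, against 7, 4 and 5 with median centring. The mean fibroblast level ran from 1.38 to 1.69 on CHIP-/- TAB, from -0.46 to -0.12 on CHIP-/- sham, from 0.46 to 1.15 on wild-type TAB and from -0.18 to 0.34 on wild-type sham arrays. Of 9 macrophage probes, 9 rose in CHIP-/- and 5 in wild type, and 4 were higher in CHIP-/- after TAB, against 6, 2 and 3 with median centring, with mean levels of 0.51 to 0.72, -0.14 to -0.03, 0.22 to 0.37 and -0.05 to 0.09 in the same 4 groups.

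The other 5 marker lists covered endothelium, atrium, fat, skeletal muscle and red cells, and their counts with TAB differed with median centring. Of 6 endothelial probes, 3 rose in CHIP-/- and 4 in wild type, and 1 was lower in CHIP-/- after TAB; with median centring 1 fell in CHIP-/- and 1 rose in wild type. Of 6 atrial probes, 2 rose in each genotype, both of Nppa, and none differed between the genotypes after TAB. With median centring 2 rose and 1 fell in CHIP-/-, 2 rose and 4 fell in wild type, and 1 was higher in CHIP-/- after TAB. Of 7 fat probes, 6 rose in CHIP-/- and 4 in wild type, and 1 was higher and 2 were lower in CHIP-/- after TAB. With median centring none rose and 1 fell in CHIP-/-, 3 rose and 1 fell in wild type, and 1 was lower in CHIP-/- after TAB. Their mean level with loess ran from 0.34 to 0.64 on CHIP-/- TAB, from -0.10 to 0.24 on CHIP-/- sham, from 0.43 to 0.68 on wild-type TAB and from -0.09 to 0.08 on wild-type sham arrays. Of 7 skeletal muscle probes, 2 rose and 2 fell in CHIP-/-, 2 rose and 1 fell in wild type, and 1 was lower in CHIP-/- after TAB; with median centring 4 fell in each genotype and none rose. Of 5 red cell probes, none passed in CHIP-/-, 2 rose in wild type and none differed between the genotypes after TAB; with median centring 4 fell in CHIP-/- and none passed in wild type. No probe of the marker lists passed between the sham groups. All 6 atrial probes (median -0.66) and 8 of 9 fibroblast probes (median -0.23) were lower in CHIP-/- sham without passing.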

How the data were processed

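Ventricle RNA labelled with Cy5 and whole neonatal mouse reference RNA labelled with Cy3, 500 ng each per the labels, were hybridised to 16 Agilent 2-colour arrays. The deposited scanner files hold spot intensity values made with Feature Extraction 9.1.3.1 on a GenePix 4000B scanner, per the file headers, and a log10 ratio of red over green per spot. The authors' deposited series table holds log2 ratios, centred per probe, for 14298 probes, 56 of them members and the filter behind them is not stated in the labels or headers used here.

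From the mean intensity and the median local background, normexp correction (offset 50) and loess within each array were run in limma 3.58.1 under R 4.3.3. Spots with an outlier mark were left out, spots of a probe were averaged, and probes whose heart signal was well above background on 4 or more arrays and that had at least 2 values in each group were fitted with 1 mean per group and an intensity trend. That minimum was set because outlier marks fall on bright members. P-values were adjusted by Benjamini-Hochberg over all 14860 probes and called below 0.05. Isoform pairs were tested with exact permutation tests. The script was tested on simulated data. The number of arrays limits the precision.

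Full values per array are given for a set of core subunits, for the isoform pairs, for the 3 largest calls in each direction of each comparison, and for the 5 largest interactions; other members are given by their differences. The members and the lists of complex I, tricarboxylic acid cycle, assembly, regulator and other subunit genes and of cardiomyocyte, atrium, fibroblast, macrophage, endothelium, fat, skeletal muscle and red cell markers were chosen with earlier results of these data known. Gene names follow the files, matched to RefSeq by accession for 22951 probes, by symbol for 6659 and by synonym for 3109, with 8455 kept as in the file; 47 gene names altered in the CHIP-/- TAB files were read from the other files. Groups share replicate numbers, but correlations of same-numbered arrays' deviations ran from -0.18 to 0.16, so numbers were not taken as pairs. Between the sham groups, however, 7 of 8 arrays correlated best with the array of their own number. Alternatives were median centring, Aquantile, other background corrections, Feature Extraction's ratios, the series table, other filters, marked spots kept, the brightest probe per gene, no trend, only the groups compared, a replicate block, a stricter threshold and arrays left out. A minimum of 15 values and the heart channel alone were added after seeing the data.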

Additional observations from a re-analysis of the deposited data

Results flagged for a closer look

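Among 111 groups of 4 arrays, 4 held an array set apart from the other 3 by more than Dixon's critical value for groups of 4, where chance alone marks about 1 group in 20. Wild-type TAB replicate 1 stood above its group for both Atp5a1 probes, at 2.01 and 1.04. Wild-type sham replicate 4 stood apart for Cox5a at 1.74, and CHIP-/- TAB replicate 3 for Cox8a at -0.47.

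The response to TAB differed between the genotypes for 14 member probes, by the interaction in limma, all of them negative, where 2.08% of all probes had a negative and 2.31% a positive one. The count was 1 with median centring, 1 without the intensity trend and 0 without the 3 sham arrays with Y-linked transcripts. In complexes II and III these were Sdhb (-0.40) and Uqcrfs1 (-0.43). In complex IV they were Cox5b (-0.41), Cox6a2 (-0.44), Cox7a1 (-0.63), Cox8b (-0.52) and both probes of Cox7a2 (-0.40 and -0.45). In complex V they were Atp5a1 (-0.42), Atp5c1 (-0.49), Atp5d (-0.30), Atp5g1 (-0.40), Atp5g2 (-0.37) and Atp5h (-0.44).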

How the results depend on the processing

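With median centring 39 rather than 24 members passed with TAB in wild type, 7 rather than 38 between the genotypes after TAB and 1 rather than 14 in the interaction; with the heart channel alone 17 passed between the genotypes after TAB. The interaction count was 23 in the deposited series table, 7 with no filter on dim probes, 1 without the intensity trend, 9 with the replicate block, 0 at an adjusted p below 0.01, 3 without the arrays with high Myl7, 0 without those with Y-linked transcripts and 5 with the heart channel alone. Shares of all tested probes are given here only for loess and median centring. Counts under other settings show how many members passed, not how members compare with all probes. The block moved no other count by over 1.5 times; same-numbered arrays correlated best in 1, 2, 0 and 7 of 8 arrays in the 4 comparisons. With single arrays left out, the counts ran from 36 to 43 with TAB in CHIP-/-, 22 to 27 with TAB in wild type, 26 to 44 between the genotypes after TAB, 0 to 0 after sham and 2 to 34 in the interaction. Signs with TAB turned with median centring for 3 of 52 members in CHIP-/- and 25 in wild type. Among members given with full values, those in CHIP-/- were Cox6a1 (-0.16) and Cox8a (-0.19). In wild type they were Cox5b (-0.42), Cox7a2 (-0.16 and -0.17), Atp5e (-0.33), Atp5o (-0.50), Atp5c1 (-0.57), Cox6a2 (-0.51), Cox8b (-0.39) and Cox8a (-0.13); with the heart channel alone Cox5b (-0.24) turned. The cause was not tested.

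Cox7a1 minus Cox7a2 with TAB in CHIP-/- reached an exact p of 0.0286 with median centring (-0.61), no background correction (-0.55), offset 16 (-0.58), Feature Extraction's ratio (-0.55), the series table (-0.60), marked spots kept (-0.59) and the heart channel alone (-0.68). In wild type it did so with median centring (-0.38), no background correction (-0.32), offset 16 (-0.36), Feature Extraction's ratio (-0.35) and the series table (-0.35). Cox6a2 minus Cox6a1 with TAB in CHIP-/- reached it with the series table (-1.004) and with marked spots kept (-0.996), and between the genotypes after TAB it missed with the heart channel alone (-0.34). With single arrays left out, Cox6a2 minus Cox6a1 ran from -1.05 to -0.93 with TAB in CHIP-/-, -0.64 to -0.54 in wild type, -0.51 to -0.38 between the genotypes after TAB and -0.05 to 0.01 after sham. Cox7a1 minus Cox7a2 ran from -0.62 to -0.49, -0.38 to -0.28, -0.34 to -0.21 and -0.10 to 0.01 in the same comparisons, and Cox8b minus Cox8a from -0.91 to -0.76, -0.34 to -0.19, -0.67 to -0.52 and -0.04 to 0.01. Isoform pairs were not recomputed for settings of the fit, which do not enter them.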
